A study of Mus musculus with 8 samples.

Results

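The E2F and DP transcription factors were taken as 10 genes listed by symbol: the activators E2f1, E2f2 and E2f3, the repressors E2f4, E2f5, E2f6, E2f7 and E2f8, and the partner genes Tfdp1 and Tfdp2. All 10 were found among the 39179 Ensembl gene IDs of each file. RNA was sequenced from common lymphoid progenitors (CLPs) of C57BL/6 mouse bone marrow, the cells from which B, T and other lymphoid lineages arise. The ex vivo CLP group held 4 libraries of cells sorted directly from marrow. The cCLP group held 4 libraries of cells grown for 2 months on OP9 stroma in a medium named KIDMEM, with Flt3L and IL-7, the latter at a low dose. Cells of both groups were sorted as lineage-negative, Flk2+ (encoded by Flt3), IL7R+, CD27+ and Ly6d-. The labels gave no genetic alteration, age, animal, culture or batch, so p-values measure only the spread between these libraries, which may be technical. The comparison sets the expression profile of the cultured cells beside that of the freshly sorted ones.

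E2F proteins bind short GC-rich sites in promoters and set the timing of genes needed for DNA replication and division. E2F1, E2F2 and E2F3 activate those genes once cyclin-dependent kinases have released them from the retinoblastoma protein. E2F4 and E2F5 act mainly with the pocket proteins p107 and p130 to hold the same genes off in resting cells, and E2F6, E2F7 and E2F8 repress without pocket proteins. E2F1 to E2F6 bind DNA as dimers with a DP protein, while E2F7 and E2F8 carry a further DNA-binding domain of their own and need none.

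Several E2F genes are known to be E2F targets themselves, so RefSeq promoter windows (GRCm38.p6, 300 bases from 250 before to 50 after a start site) were searched on both strands for the E2F consensus, spelled out as TTTCCCGC, TTTGGCGC, TTTCGCGC and TTTGCCGC. The same words without their first T, which lie inside the longer ones, were counted too. Of 12 windows of 8 members, 5 held a longer word and 6 a shorter one, while 2.26% and 9.57% of all 32851 windows did. The windows of Tfdp1, with start sites 53 bases apart, overlap and share the same word, which was thus counted in both. E2f4 and E2f5 were not matched. Stretches of E2f2, E2f3 and E2f8 are shown because limma called these 3 genes in the fit of all 10 members over 6 libraries described below. Capitals mark the words, which are matches of letters and not shown to be bound sites.
E2f2, chr4:136172294-136172323, plus strand, from 21 to 50 after the start site: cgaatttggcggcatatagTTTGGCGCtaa
E2f3, chr13:29986064-29986213, minus strand, the 150 bases before the start site: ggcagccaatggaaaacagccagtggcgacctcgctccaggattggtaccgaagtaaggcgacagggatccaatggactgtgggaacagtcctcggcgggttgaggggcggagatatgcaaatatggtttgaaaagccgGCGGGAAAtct
E2f3, chr13:29986024-29986053, minus strand, from 11 to 40 after the start site: ggaggaccTTGGCGCgtaaaccgtatccct
E2f8, chr7:48881597-48881746, minus strand, the 150 bases before the start site: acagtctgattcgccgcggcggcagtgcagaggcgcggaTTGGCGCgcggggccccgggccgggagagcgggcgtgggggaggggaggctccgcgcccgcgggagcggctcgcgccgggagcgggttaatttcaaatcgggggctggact

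Positions are those of a word's first base on the gene's strand, counted from the start site as 1. E2f2 held TTTGGCGC at 40 in its first window, whose start site lies 120 bases before the start of the gene in GENCODE. E2f3 held TTTCCCGC on the opposite strand at -11 and TTGGCGC at 19. E2f8 held a shorter word alone, TTGGCGC at -111. TTTGAA, the core of the cell cycle homology element through which DREAM and B-Myb complexes act, stood at -23 in E2f3 and on the opposite strand at -20 in E2f8, and in a further E2f2 window at -31. It was in 3 of the 12 member windows and in 17.9% of all windows. The first windows of Tfdp1 and E2f7 also held a longer E2F word (TTTCGCGC and TTTCCCGC, both on the opposite strand), and those of E2f6 and Tfdp2 held none. The window of E2f1 held none either, but its RefSeq start site lies 466 bases inside the GENCODE gene. The start sites of the Tfdp2 windows lie 62430 and 62973 bases inside that gene. The GENCODE starts of E2f1 and Tfdp2 were thus not searched.

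The deposited values were whole numbers on a scale that no label names, and they are given here as scaled values, the deposited value divided by a library factor. The depth behind them is unknown: at a value of 3, a step of 1 moves log2(value + 1) by 0.32. Levels were compared between libraries and not between genes, since gene length may enter them.

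Of the 8 libraries, ex vivo CLP 2 and cCLP 1 went against their labels over the whole profile. Spearman's rho of ex vivo CLP 2 was 0.959 to 0.986 with cCLP 2, 3 and 4 and 0.739 to 0.803 with its own group, and that of cCLP 1 was 0.948 to 0.98 with ex vivo CLP 1, 3 and 4 and 0.782 to 0.793 with its own group. Whether the labels of these libraries were exchanged cannot be settled from the files, and this touches each value given as labelled. Each result is therefore given over the 8 libraries as labelled and over 6 libraries, the fresh trio (ex vivo CLP 1, 3 and 4) and the cultured trio (cCLP 2, 3 and 4). The p-values over 6 libraries hold only given that choice, which was made with the profiles known. Of the genes of the sort markers, Flt3 and Cd27 were not called over the 6 libraries. Il7r, which was sorted for, had deposited values of 61, 14 and 24 in the fresh trio, 213, 204 and 256 in the cultured trio, 193 in ex vivo CLP 2 and 28 in cCLP 1 (log2 fold change 2.85 over 6 libraries, limma adjusted p = 0.00364). The deposited value of Ly6d, which was sorted against, was 28, 28 and 41 in the fresh trio, 22 in cCLP 1, and 0 or 1 in the other 4 libraries. Kit and Ly6a, listed as CLP genes beside the sort markers, were called lower in the cultured trio. Kit fell from 29.4 to 10.1 (log2 fold change -1.44, limma adjusted p = 0.000109). Ly6a fell from 29.7 to 0.32 (-4.61, adjusted p = 8.42e-06), but it passed the filter on low values through the fresh trio alone. Over the 6 libraries limma called 22.4% of all genes tested lower in the cultured trio. There 10 of 10 tested myeloid and 6 of 6 tested dendritic marker genes were called lower. Through the fresh trio alone, 9 and 5 of these genes passed the filter on low values. Summed scaled values of the myeloid and then the dendritic markers ranged from 1313 to 3148 and from 400.1 to 511.6 in the fresh trio. In the cultured trio the sums ranged from 268.9 to 294.3 and from 46.1 to 63.1. The library labelled ex vivo CLP 2 had sums of 170.6 and 47.1, and cCLP 1 had sums of 1689 and 423.7. Elane, Ctsg, Csf1r, Csf3r, S100a8 and S100a9, which mark granulocytes and monocytes, were listed at 0 throughout the cultured trio. Mpo, of the same myeloid list, was lower there but not absent. It was at 365, 944.8 and 972.3 in the fresh trio and 260.4, 271.4 and 284.2 in the cultured trio, where it made up most of the myeloid sum. In ex vivo CLP 2 it was at 161.6. Summed T and NK markers were at 44.7 to 63.9 and 4.19 to 11.5 in the fresh and the cultured trio. B lineage markers were at 33.7 to 42.3 and 15.3 to 26.8, and erythroid and megakaryocyte markers at 4.83 to 30.5 and 0 to 0.96. The B lineage sum was 49.37 in ex vivo CLP 2, above both trios, and 35.15 in cCLP 1. Without the filter limma called 3 of the 7 B lineage genes higher in the cultured trio and 2 lower, beside 16.3% and 20.2% of all genes. With the filter, 1 was tested and called lower, and it passed through the fresh trio alone. Cd3e, Bcl11b and Ncr1, which define T and NK cells, were listed at 0 in all 8 libraries, as were 5 of 6 stromal marker genes. The part of these other cell types in the results over 6 libraries was not tested.

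**Figure D1:**
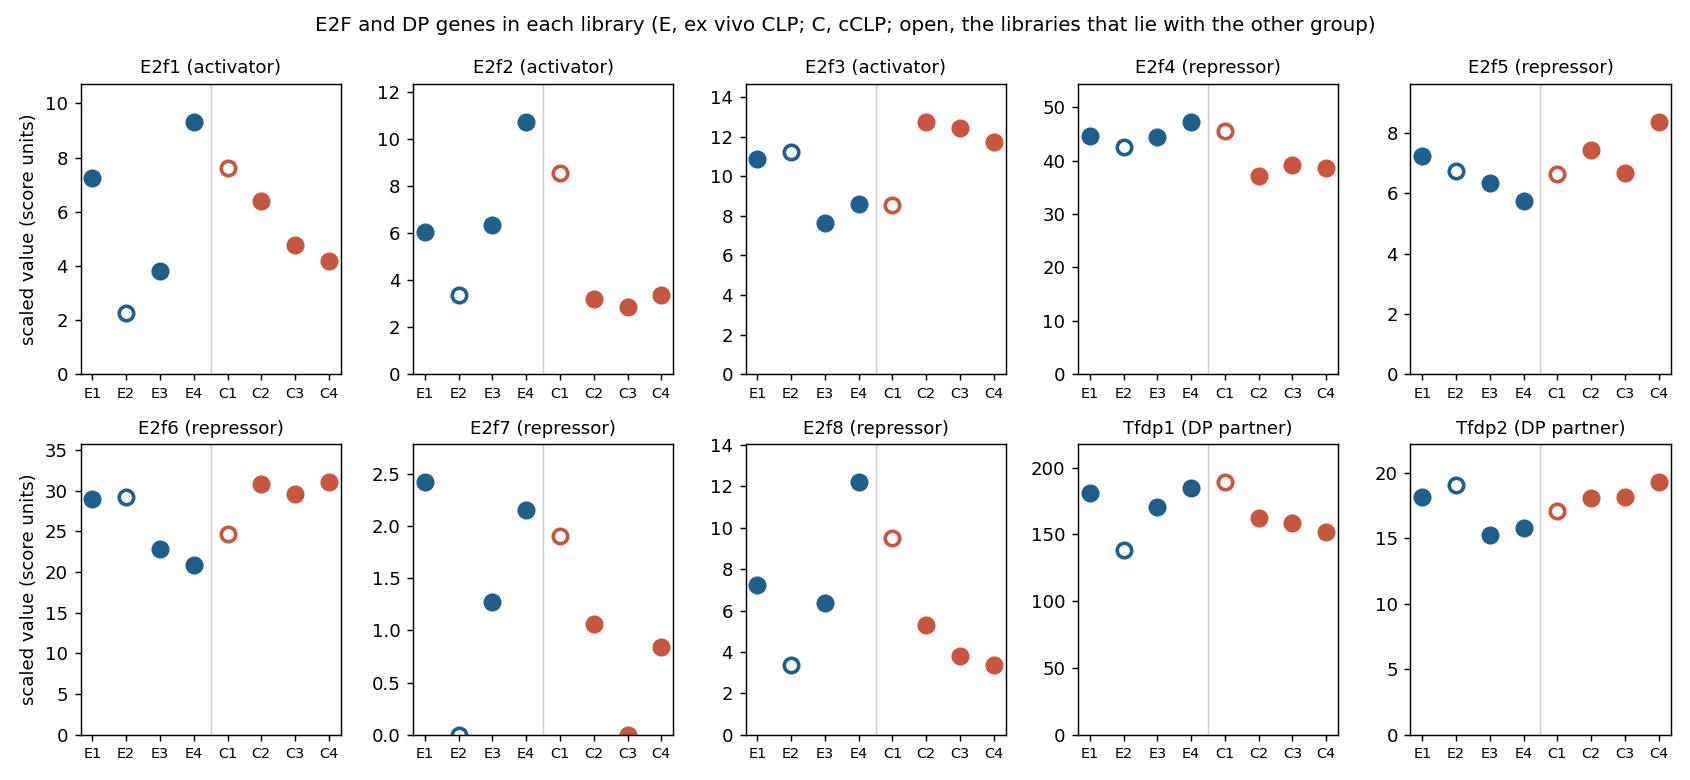
Scaled value (score units, linear axis from 0) of each E2F and DP gene in each of the 8 libraries, 1 point per library (E1 to E4, ex vivo CLP; C1 to C4, cCLP). Open points are ex vivo CLP 2 and cCLP 1. E2f2 sits between 2.87 and 3.37 in C2 to C4 and E2, and between 6.04 and 10.8 in the other 4.

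Over the 8 libraries as labelled, no E2F or DP gene passed the test for a difference between cCLPs and ex vivo CLPs. Of the 10 members, 5 reached a scaled value of 10 in at least 4 libraries and were tested (E2f3, E2f4, E2f6, Tfdp1 and Tfdp2). Of these, 0 were called by limma at an adjusted p below 0.05 and 0 had an unadjusted p below 0.05, in a comparison that called 0.0% of 6580 genes and in which 510 genes had an unadjusted p below 0.05. Their log2 fold changes, cCLP minus ex vivo CLP on the log2(scaled value + 1) scale, were at most 0.23 in size, and the lowest adjusted p was 0.482, for E2f4. A fit of 13861 genes without the filter took in all 10 members and called 0 of them, again with 0.0% of genes called, 0 members at an unadjusted p below 0.05 and a lowest adjusted p of 0.531. The groups overlapped for every one of the 10 members, while they did not for 3.45% of the genes with the filter and 3.14% without it. The 95% interval was widest for E2f7, from -1.35 to 0.77.

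With the 6 libraries, the activators E2f2 and E2f3 went opposite ways, and the repressors did not move as one either. E2f4 fell and was called with the filter (limma adjusted p = 0.0494) but not without it (0.0534). E2f8, below the filter, fell and was called without it. The log2 fold changes of E2f5 (0.19) and E2f6 (0.33) were above 0 and that of E2f7 (-0.90) below it, and none of these was called. E2f3 rose and E2f4 fell among the 5 tested members, where limma called 20.7% of 6622 genes higher, 22.4% lower and 43.1% in all. Without the filter E2f3 rose and E2f2 and E2f8 fell, so that 3 of 10 members were called, while the fit called 16.3% of 13755 genes higher, 20.2% lower and 36.5% in all. The trios did not overlap for 4 of the 5 members, as for 55.9% of genes, and for 7 of the 10 without the filter (E2f7 through the library factors alone), as for 49.2%. The share of members called was thus close to the share of all genes. The median log2 fold change was 0.17 for the 5 members and 0.00 for all genes tested, and -0.21 and -0.04 without the filter. These are bulk libraries, in which fewer cells expressing a gene and less RNA per cell cannot be told apart.

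**Figure D2:**
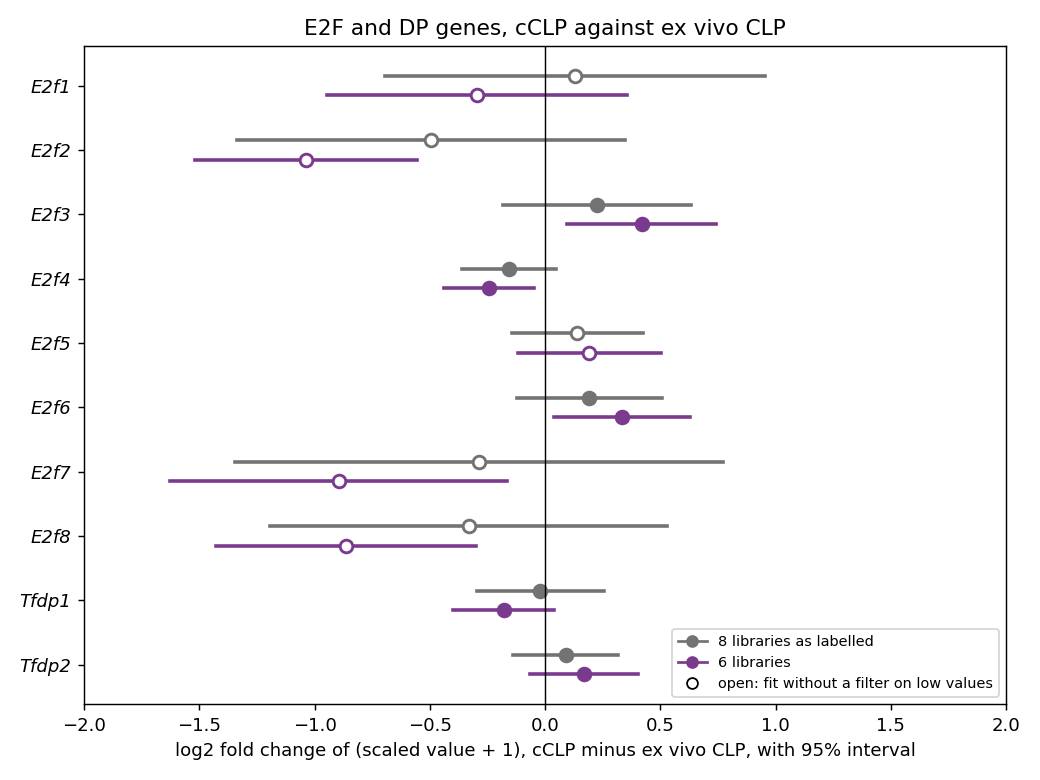
Log2 fold change of (scaled value + 1), cCLP minus ex vivo CLP, with 95% confidence interval for each gene, over 8 libraries (grey) and 6 libraries (purple). Open points come from the fit without a filter on low values. All intervals over 8 libraries cross 0, and over 6 libraries those of E2f2, E2f4, E2f7 and E2f8 lie below 0 and those of E2f3 and E2f6 above it. The intervals are not adjusted for the number of genes, and E2f6 and E2f7 were not called. Over 6 libraries limma gave an unadjusted p below 0.05 for 3358 of 6622 genes with the filter and 6215 of 13755 without it.

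Among the activators, E2f2 (ENSMUSG00000018983, chromosome 4, 136172394 to 136196057) had the largest log2 fold change of the 10 members over 6 libraries, except that E2f7 exceeded it with a pseudocount of 0.5 and without ex vivo CLP 4 or cCLP 2. Its scaled values in the fresh trio were 6.04, 6.35 and 10.8, and those in the cultured trio were 3.19, 2.87 and 3.35. It was at 3.37 in ex vivo CLP 2 and 8.55 in cCLP 1, so each of these libraries had the level of the opposite trio. E2f2 fell from 7.72 ± 2.64 (SD, n = 3) to 3.14 ± 0.25 over the 6 libraries (log2 fold change -1.04 ± 0.21 SE, limma without the filter, adjusted p = 0.00616). The deposited values of the cultured trio were 3, 3 and 4, which is a spread of 1 step. All 12 other settings called it, with adjusted p from 0.00596 to 0.0284. As labelled, the 4 ex vivo libraries averaged 6.63 ± 3.06 (SD) and the 4 cCLP libraries 4.49 ± 2.71, and the log2 fold change was -0.50 ± 0.37 (SE, limma adjusted p = 0.561).

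E2f3 (ENSMUSG00000016477, chromosome 13, 29906575 to 29986063), which like E2f2 encodes an activator bound by the retinoblastoma protein, went the other way. Its scaled values were 10.9, 7.62 and 8.61 in the fresh trio and 12.8, 12.4 and 11.7 in the cultured trio, with no overlap. The level was 11.2 in ex vivo CLP 2 and 8.55 in cCLP 1. In the fresh trio only ex vivo CLP 1 reached the filter value of 10, so E2f3 passed the filter through the cultured trio, where it was higher. E2f3 rose from 9.04 ± 1.67 (SD, n = 3) to 12.3 ± 0.52 over the 6 libraries (log2 fold change 0.42 ± 0.14 SE, limma adjusted p = 0.0424, and 0.0442 without the filter). This call ended when library totals (limma adjusted p = 0.104) or upper quartiles (0.0723) set the scaling, and without ex vivo CLP 3 (0.101), ex vivo CLP 4 (0.0981), cCLP 2 (0.134), cCLP 3 (0.12) or cCLP 4 (0.0969). The log2 fold change was 0.23 ± 0.18 (SE, limma adjusted p = 0.516) over the 8 libraries. E2f3 is known to be transcribed from alternative start sites into a longer and a shorter form, which a value per gene does not separate.

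E2f1 (ENSMUSG00000027490, chromosome 2, 154559407 to 154569892) encodes the founding member of the family, which can also induce apoptosis. It was at 7.25, 3.81 and 9.33 in the fresh trio and at 6.38, 4.78 and 4.19 in the cultured trio, with 2.24 in ex vivo CLP 2 and 7.6 in cCLP 1. The groups overlapped over 8 and over 6 libraries, and both the lowest and the highest value were in ex vivo libraries. The log2 fold change was 0.13 ± 0.36 (SE, limma without the filter, adjusted p = 0.859) over 8 libraries and -0.30 ± 0.28 (adjusted p = 0.449) over 6, and its sign also turned without ex vivo CLP 2 alone (-0.17).

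On the log2(scaled value + 1) scale, E2f3 minus E2f2 was 0.75, 0.23 and -0.29 in the fresh trio and 1.72, 1.80 and 1.55 in the cultured trio. It was 1.48 in ex vivo CLP 2 and 0.00 in cCLP 1. These values restate the opposite signs of the 2 genes and add no support. As labelled the groups overlapped, from -0.29 to 1.48 in ex vivo CLPs and from 0.00 to 1.80 in cCLPs, and only the change between libraries can be read.

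Of the repressors that work with pocket proteins, E2f4 (ENSMUSG00000014859, chromosome 8, 105297663 to 105305370) is the main one in resting cells. It was at 44.7, 44.5 and 47.4 in the fresh trio and at 37.2, 39.2 and 38.6 in the cultured trio, and these did not overlap. The library labelled ex vivo CLP 2, at 42.6, lay between the trios, and cCLP 1, at 45.6, lay within the fresh one. E2f4 fell from 45.5 ± 1.61 (SD, n = 3) to 38.3 ± 1.01 over the 6 libraries (log2 fold change -0.24 ± 0.08 SE, limma adjusted p = 0.0494). The p was at the threshold, and 4 of 14 other settings called it (adjusted p from 0.0447 to 0.178). The call ended without the filter (adjusted p = 0.0534), without ex vivo CLP 1 (0.0505), 3 (0.0557) or 4 (0.103), without cCLP 2 (0.167), 3 (0.117) or 4 (0.135), and under 3 further settings. As labelled, E2f4 averaged 44.8 ± 1.95 (SD) in the 4 ex vivo libraries and 40.1 ± 3.73 in the 4 cCLP libraries.

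E2f5 (ENSMUSG00000027552, chromosome 3, 14578641 to 14606309), a close relative of E2f4, ranged from 5.74 to 8.38 over all 8 libraries. Its log2 fold change was 0.14 ± 0.13 (SE, limma without the filter, adjusted p = 0.609) over 8 libraries and 0.19 ± 0.13 (adjusted p = 0.307) over 6, with groups that overlapped in both. E2f5 overlaps 1810022K09Rik on the other strand, which reached a deposited value of 87. The strand setting of the counting is not given in the sources used here, so the reads of these genes may not be told apart.

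E2f6 (ENSMUSG00000057469, chromosome 12, 16810963 to 16839742) encodes a repressor that acts in a Polycomb complex, PRC1.6. It was at 29.0, 22.9 and 20.8 in the fresh trio and at 30.8, 29.6 and 31.0 in the cultured trio, with 29.2 in ex vivo CLP 2 and 24.7 in cCLP 1. The trios did not overlap, though ex vivo CLP 1 lay less than 1 unit below cCLP 3. The log2 fold change over the 6 libraries was 0.33 ± 0.13 (SE, limma adjusted p = 0.0687), while leaving out ex vivo CLP 1 made it a call (0.46, adjusted p = 0.00565). Over 8 libraries it was 0.19 ± 0.14 (limma adjusted p = 0.49).

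The atypical repressors E2F7 and E2F8 are known to turn E2F target genes down again later in the cell cycle. E2f8 (ENSMUSG00000046179, chromosome 7, 48866429 to 48881596) was at 7.25, 6.35 and 12.2 in the fresh trio and at 5.32, 3.82 and 3.35 in the cultured trio. With 3.37 in ex vivo CLP 2 and 9.5 in cCLP 1, its libraries were arranged as those of E2f2. E2f8 fell from 8.60 ± 3.15 (SD, n = 3) to 4.16 ± 1.02 over the 6 libraries (log2 fold change -0.86 ± 0.24 SE, limma without the filter, adjusted p = 0.0255). The call ended without ex vivo CLP 4 (-0.61, adjusted p = 0.0655), cCLP 3 (0.0845) or cCLP 4 (0.1) and with scaling by totals (0.0512). The log2 fold change was -0.33 ± 0.38 (SE, limma adjusted p = 0.644) over the 8 libraries. Gm2788, which overlaps E2f8 on the other strand, reached a deposited value of 4.

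E2f7 (ENSMUSG00000020185, chromosome 10, 110745439 to 110787384) had deposited values of 2, 1 and 3 in the fresh trio, 1, 0 and 1 in the cultured trio, 0 in ex vivo CLP 2 and 2 in cCLP 1. Its log2 fold change over 6 libraries, -0.90 ± 0.32 (SE, limma without the filter, adjusted p = 0.0588), rests on differences of 0 to 3 steps. Ex vivo CLP 3, cCLP 2 and cCLP 4 all had a deposited value of 1, so the trios are kept apart (1.27 and 1.06) by the library factors alone. It was -0.29 ± 0.46 (limma adjusted p = 0.737) over 8 libraries.

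Neither DP gene passed the test in either comparison. Tfdp1 (ENSMUSG00000038482, chromosome 8, 13338751 to 13378448), which encodes the dimer partner DP1, was at 181, 170.2 and 184 in the fresh trio and at 163, 159 and 152 in the cultured trio. It was lowest of all in ex vivo CLP 2 (138) and highest in cCLP 1 (189). The trios did not overlap, and the log2 fold change was -0.18 ± 0.09 (SE, limma adjusted p = 0.167) over 6 libraries and -0.02 ± 0.12 (adjusted p = 0.932) over 8, where its sign turned under 4 other settings. Tfdp2 (ENSMUSG00000032411, chromosome 9, 96196275 to 96323646), which encodes DP2, ranged from 15.2 to 19.3 over the 8 libraries, with groups that overlapped. Its log2 fold change was 0.17 ± 0.10 (SE, limma adjusted p = 0.217) over 6 libraries and 0.09 ± 0.10 (adjusted p = 0.621) over 8. The 95% intervals over 6 libraries were -0.40 to 0.04 for Tfdp1 and -0.07 to 0.40 for Tfdp2.

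**Figure D3:**
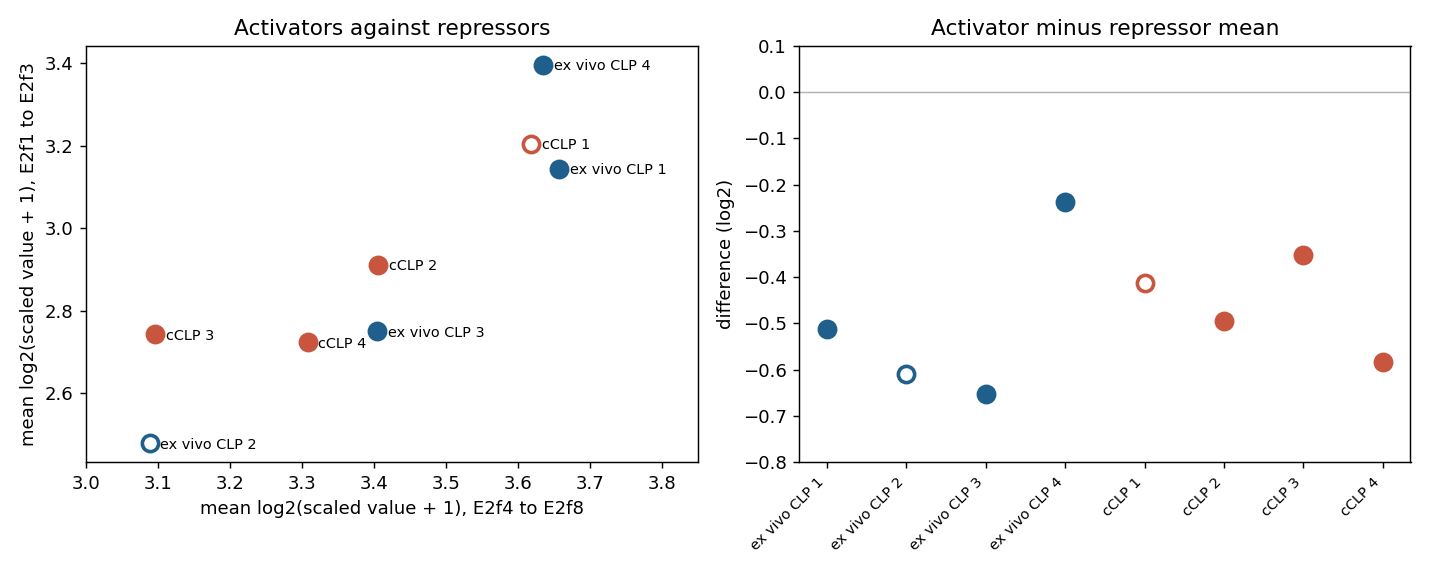
Left, mean log2(scaled value + 1) of E2f1 to E2f3 against that of E2f4 to E2f8, 1 point per library (blue, ex vivo CLP; red, cCLP; open, ex vivo CLP 2 and cCLP 1). Right, the activator minus the repressor mean in each library, which spans -0.65 to -0.24 in ex vivo CLPs and -0.58 to -0.35 in cCLPs.

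The balance of activators against repressors overlapped between the groups. The mean log2(scaled value + 1) of the 3 activators minus that of the 5 repressors was -0.51, -0.61, -0.65 and -0.24 from ex vivo CLP 1 to 4, and -0.41, -0.50, -0.35 and -0.58 from cCLP 1 to 4. The ex vivo values enclosed all 4 cCLP values. As labelled, the balance was -0.50 ± 0.19 (SD, n = 4) for ex vivo CLPs and -0.46 ± 0.10 for cCLPs, and for the trios it was -0.47 ± 0.21 (SD, n = 3) and -0.48 ± 0.12. With E2f4, E2f5 and E2f6 alone as repressors, cCLPs minus ex vivo CLPs was -0.10 in place of 0.04 over 8 libraries. For the trios that score was -1.26 in the fresh and -1.66 in the cultured one, a difference of -0.40 in place of -0.01, with 1 fresh library (-1.57) below the highest cultured one (-1.53). No test was run on either score. Each class mean joins members with opposite signs, E2f2 with E2f3 and E2f8 with E2f6. Each gene also has the same weight, so E2f7, with deposited values from 0 to 3, counts as much as E2f4. With a pseudocount of 5 the first score differed by -0.04 between the trios. E2f6 minus E2f8 was 1.86, 1.70 and 0.72 in the fresh trio and 2.33, 2.67 and 2.88 in the cultured trio, with 2.79 in ex vivo CLP 2 and 1.29 in cCLP 1. These differences restate the opposite signs of E2f6 and E2f8 and add no support.

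The pocket proteins bind and silence E2Fs. Of their 2 tested genes, 0 rose and 1 fell over the 6 libraries, where 20.7% and 22.4% of all genes tested did. Rbl1, which encodes p107 and is itself known as an E2F target, fell from 34.4 to 15.1 (log2 fold change -1.14 ± 0.10 SE, limma adjusted p = 5.88e-05, n = 3). Rb1, the retinoblastoma gene, was below the filter and fell from 9.54 to 7.23 in the fit without it (-0.36, adjusted p = 0.0357). Rbl2, which encodes p130, was at 12.95 and 11.04 (-0.21, limma adjusted p = 0.191).

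The MuvB core joins E2F4, DP and p130 or p107 in the repressive DREAM complex, and B-Myb in an activating one. Of 5 tested genes, 1 rose and 2 fell over the 6 libraries, where 20.7% and 22.4% of all genes tested did. Mybl2, which encodes B-Myb, fell from 17.4 to 9.13 (log2 fold change -0.86, limma adjusted p = 0.000922), Lin37 rose from 10.2 to 14.5 (0.50, adjusted p = 0.0399), and Lin9 was the other that fell. Mybl2 reached the filter value of 10 in the fresh trio alone, the group in which it was higher, so its count carries no weight. Of 7 tested G1 cyclin and kinase genes, 1 rose and 1 fell, beside the same shares of all genes. Cdk6, whose kinase phosphorylates the retinoblastoma protein, rose from 60.8 to 94.6 (0.62, limma adjusted p = 0.00421). Ccnd3, a D-type cyclin gene and so a partner of that kinase, fell from 24.1 to 13.1 (-0.83, limma adjusted p = 0.000725). Ccnd2 had the lowest log2 fold change but was not called (-0.89, adjusted p = 0.138). Of 7 genes of CDK inhibitors, which act against those kinases, 4 were tested and fell, where 22.4% of all genes did. Of these 4, Cdkn1a passed the filter through the fresh trio alone. The largest change of the 4 was that of Cdkn2d, which encodes p19INK4d, from 61.9 to 10.2 (-2.44, limma adjusted p = 0.000285). In the cultured trio only cCLP 4 (12.6) reached the filter value of 10, so Cdkn2d too passed through the fresh trio, where it was higher.

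**Figure D4:**
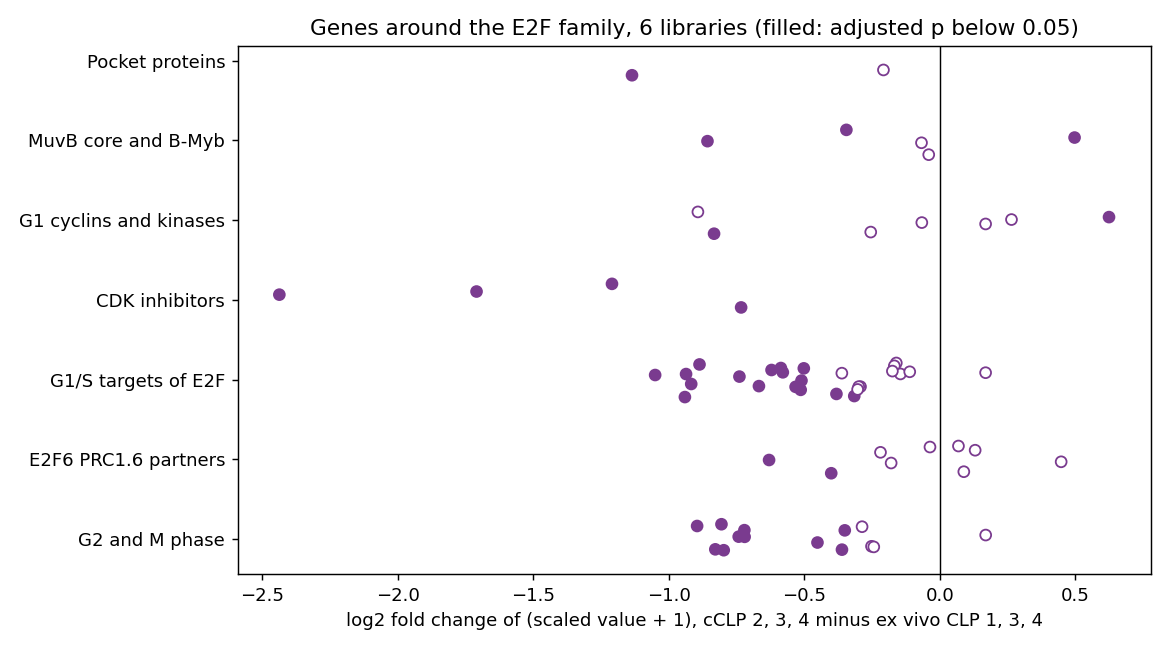
Log2 fold change of (scaled value + 1), cCLP 2, 3 and 4 minus ex vivo CLP 1, 3 and 4, for the tested genes of 7 lists around the E2F family (pocket proteins to G2 and M phase), 1 point per gene, spread vertically for view. Filled points have an adjusted p below 0.05. In the list of G1/S targets of E2F, 16 filled points lie left of 0 and 0 right of it.

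Of 26 tested genes known as E2F targets of the G1/S transition, 0 rose and 16 fell over the 6 libraries, where 20.7% and 22.4% of all genes tested did. The log2 fold change was below 0 for 25 of the 26, with a median of -0.51 and of 0.00 for all genes. Tk1, the thymidine kinase gene, had the lowest, falling from 34.4 to 16.0 (-1.05 ± 0.13 SE, limma adjusted p = 0.000405, n = 3). The replicative helicase gene Mcm5 fell from 231 to 137.5 (-0.74, limma adjusted p = 0.00137), and Pola1, a DNA polymerase subunit gene, from 34.3 to 17.6 (-0.92, adjusted p = 0.000288). Ccne2, a cyclin E gene, was the 1 target above 0 (0.17, limma adjusted p = 0.414). The summed scaled value of all 29 listed targets was 2364, 2504 and 2408 in the fresh trio and 1679, 1684 and 1720 in the cultured trio, with 1699 in ex vivo CLP 2 and 2398 in cCLP 1. These sums took the same arrangement over libraries as the myeloid and dendritic marker sums given above. As labelled, over 8 libraries, 0 targets rose and 0 fell, with a median of -0.29.

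Genes of G2 and M phase mark dividing cells, and 0 of 14 rose and 10 fell over the 6 libraries (median -0.59), where 20.7% and 22.4% of all genes did. Foxm1, 1 of the 10, passed the filter through the fresh trio alone. Ccna2, the cyclin A2 gene, fell from 109 to 58.3 (-0.90, limma adjusted p = 0.000922), and Plk1, a mitotic kinase gene, was the highest (0.17, adjusted p = 0.523). The summed value ranged from 900.4 to 1087 in the fresh trio and from 566.6 to 710.1 in the cultured trio, with 754 in ex vivo CLP 2 and 922.4 in cCLP 1. The part of the share of dividing cells in the levels of E2f2 and E2f8 was not tested.

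Of 9 tested partners of E2F6 in PRC1.6, 0 rose and 2 fell over the 6 libraries (median -0.04), where 22.4% of all genes fell. L3mbtl2, 1 of the 2, passed the filter through the fresh trio alone. Pcgf6, whose product defines the complex, was at 14.98 and 20.4 (0.45, limma adjusted p = 0.0548), and Yaf2 fell from 21.7 to 13.4 (-0.63, adjusted p = 0.0334). Among apoptosis genes known as targets of E2F1, Bcl2l11, which encodes Bim, fell from 12.6 to 3.81 (-1.50, limma adjusted p = 0.000172), but it passed the filter through the fresh trio alone. Apaf1, which encodes the core of the apoptosome, was at 10.6 and 11.04 (0.05, limma adjusted p = 0.731), and Trp73 was listed at 0 in all 8 libraries. As labelled, over 8 libraries, 0 genes of any of these lists were called.

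By Pearson's r of log2(scaled value + 1) over the 8 libraries, the genes most like E2f1 among 6538 were Pcnt (0.985), Slk (0.98), Nipbl (0.98), Ipo9 (0.977) and the replication gene Mcm4 (0.977). Those most like E2f3 were Yeats2 (0.995), Arhgap30 (0.992), Pcmtd2 (0.987), Camk1d (0.984) and Gtf3c6 (0.983). The libraries form 2 clusters and share their scaling, so these values describe likeness alone.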

How the data were processed

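Per the submitters' processing notes, TopHat2, Bowtie2 and HTSeq 1.0.6 were used with GRCm38 (mm10). Their roles, the strand setting and the annotation release are not given in the sources used here. The values the authors deposited were treated as a score, a whole number per gene. They varied less between replicate libraries than counts can (dispersion index 0.54 for ex vivo CLP 3 and 4 and 0.26 for cCLP 3 and 4), so depth is unknown and no count test was used. The values of a library summed to between 378594 and 704305. GENCODE vM21 gave symbols and positions. Library factors were unweighted trimmed means of log ratios (30% of ratios, 5% of levels trimmed). Genes were kept if scaled values reached 10 in a number of libraries equal to the smaller group. log2(scaled value + 1) was fitted with limma 3.58.1 in R 4.3.3 (trend, robust), two-sided, with Benjamini-Hochberg adjustment over all genes tested. Members below the filter are given from a fit of every gene above 0 in at least 1 library. The fits were tested on simulated data. The genes changed there had mean levels above those of E2f2, E2f3 and E2f8, so the simulation does not bear on calls of these members. Python 3.11.15 and pandas 2.3.3 made the tables.

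The members and lists were chosen with earlier results of these data known, as was the choice of 6 libraries. Genes named were all members, the pocket proteins, the highest and the lowest log2 fold change over 6 libraries in each list, and the 5 genes most like E2f1 and most like the tested member that changed most. Lin9, Ccnd3, Cdkn1a, Mcm5, Pola1, L3mbtl2, Foxm1, Bcl2l11, Trp73 and Mpo were added after their values were seen. The result of 1 gene that this rule names is not reported here. Summed scaled values of stromal markers were 2.87 to 13.3 per library. Alternatives were other scalings, filters, pseudocounts and moderation, leaving out each library, and a replicate block.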

Additional observations from a re-analysis of the deposited data

Results flagged for a closer look

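The library labelled cCLP 1 stood apart for E2f2, at a scaled value of 8.55 where the other 3 cCLP libraries lay between 2.87 and 3.35. Its gap to the nearest of them was 0.914 of the whole range of the group, above Dixon's 95% critical ratio for 4 libraries. This was 1 of 22 groups of 4 examined, and chance alone gives such a gap in about 1 in 20. The same library lay with ex vivo CLP 1, 3 and 4 across all genes tested. The cause was not tested.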

How the results depend on the processing

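Over the 8 libraries with a filter, or with no filter as the 1 change, 0 genes and 0 members were called under each other scaling, filter, pseudocount and moderation, without each library in turn, and with the replicate number as a block (0 genes and 0 members). The fit without a filter, used for members below it, called 1 gene, not a member, without cCLP 1 (lowest adjusted p 0.0231, limma). Same-numbered libraries had correlations of deviations from the labelled group means of 0.594, 0.842, -0.574 and -0.857. Ex vivo CLP 2 and cCLP 1 shift those means and so set these signs, and the correlations cannot show whether the numbers are pairs. The labels gave no animal or culture, and the numbers were not taken as pairs. Leaving out both ex vivo CLP 2 and cCLP 1 gave 2852 genes and 2 members. The log2 fold change of E2f1 over 8 libraries turned from 0.13 to -0.30 over 6 libraries and ranged from -0.17 (without ex vivo CLP 2) to 0.39 without 1 library. That of Tfdp1 turned from -0.02 to 0.031 with scaling by totals and ranged from -0.11 to 0.025 without 1 library (above 0 without ex vivo CLP 1, ex vivo CLP 4 or cCLP 4). That of E2f7 ranged from -0.67 to 0.0001, the latter without cCLP 3. Over the 6 libraries, no filter on low values gave 5023 genes, with more genes tested. The 2 members called became 1 with upper quartiles, 1 with a pseudocount of 5, 1 without trend and robust moderation and 0 with totals. Leaving out 1 library gave 0 to 2 members and 2177 to 3355 genes. E2f2 was called in 12 of 12 settings without a filter and E2f8 in 8 of 12, E2f3 in 7 of 14 and E2f4 in 4 of 14. No member turned sign over 6 libraries under these settings. The difference in activator minus repressor balance was -0.10 with E2f4, E2f5 and E2f6 as repressors and -0.0076 to 0.13 without 1 library. Where another setting changed a value and no reason is given here, the cause was not tested.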
